A study of Mus musculus with 2 samples.

Results

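The genes described here encode the machinery that acidifies the lysosome and much of the machinery that digests protein inside it. They were chosen by name from the genes with at least 1 protein-coding transcript: every symbol that begins with Atp6v or Atp6ap, every symbol made of Cts and a single letter, and Lamp1, Lamp2 and Psap. The rule itself uses names and no measured value, and gave 47 genes, out of 21901 genes with a protein-coding transcript and 55536 annotated genes in all. They are 14 genes named Atp6v1, 9 named Atp6v0, 3 named Atp6ap, 18 cathepsins, and the 3 genes Lamp1, Lamp2 and Psap. They were measured in total RNA of the hippocampus from 2 male B6CASTF1/J mice of 8 to 10 months, bred from C57BL/6J and CAST/EiJ parents and supplied by The Jackson Laboratory. Each animal gave 1 library from 300 ng of RNA, with ribosomal RNA reduced, the strand kept and ERCC spike-ins (synthetic control RNAs) added. Animal 2 gave replicate 1 and animal 4 gave replicate 2. The labels give the tissue as layer of hippocampus, name no treatment and give both animals the same donor entry. All values were assigned on the reference mouse annotation, so alleles of the CAST/EiJ parent were not counted apart.

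The vacuolar ATPase, or V-ATPase, is a rotary pump that spends ATP to move protons into lysosomes, endosomes and, in neurons, synaptic vesicles, where the proton gradient drives the uptake of neurotransmitter. Its V1 sector lies in the cytosol and hydrolyses ATP, and its V0 sector lies in the membrane and carries the protons. Cathepsins are the proteases of the lysosome and most of them work best in the acid that this pump makes. Lamp1 and Lamp2 are heavily glycosylated proteins of the lysosomal membrane, and Psap is cut into the saposins, small proteins that help lysosomal enzymes reach their lipids.

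Replicate 1 held 23458117 expected counts and replicate 2 held 29584307. An expected count is an estimate of the reads from a gene, and TPM is the estimated abundance per length, scaled to a common total, so TPM levels can be compared between genes. The excitatory neuron markers were all detected and summed to 2765 and 2777 TPM. The 2 libraries differed most plainly in markers of the choroid plexus, the tissue that secretes cerebrospinal fluid: the 9 on the list summed to 17.9 TPM in replicate 1 and 1792 in replicate 2. These are bulk samples, in which fewer cells of a type and less RNA per cell cannot be told apart. The libraries were taken as separate animals because their labels number the animals 2 and 4, although both give the same donor entry. With 1 library per animal the spread between the libraries may be technical in part.

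Of the 47 genes, 33 (70.2%) were detected, meaning at 1 TPM or more in both libraries, against 12999 (59.4%) of all genes with a protein-coding transcript. The median of the detected genes was 113 TPM, where the median of all detected protein-coding genes was 17.4. In the order of all protein-coding genes, 22 of the 47 lay above at least 90% of them. Together the 47 genes summed to 4695 TPM in replicate 1 and 4914 in replicate 2 (4804 ± 155, SD, n = 2), which was 0.925% and 1.01% of the TPM of nuclear protein-coding genes. The 25 V-ATPase genes made up most of this, with 3244 and 3314 TPM (3279 ± 49.4). The 18 cathepsins summed to 591 and 661 TPM (626 ± 49.6). The detected genes ran from 1.68 TPM (Atp6v1c2) to 719 TPM (Psap). Of the 32 steps between neighbours in the order of levels, the deposited TPM bounds separated 10 in both libraries. Those bounds are credible bounds of the estimate within a library and hold no spread between animals, and the TPM of 13 detected genes in replicate 1 and of 11 in replicate 2 lay above the gene's own upper bound.

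**Figure D1:**
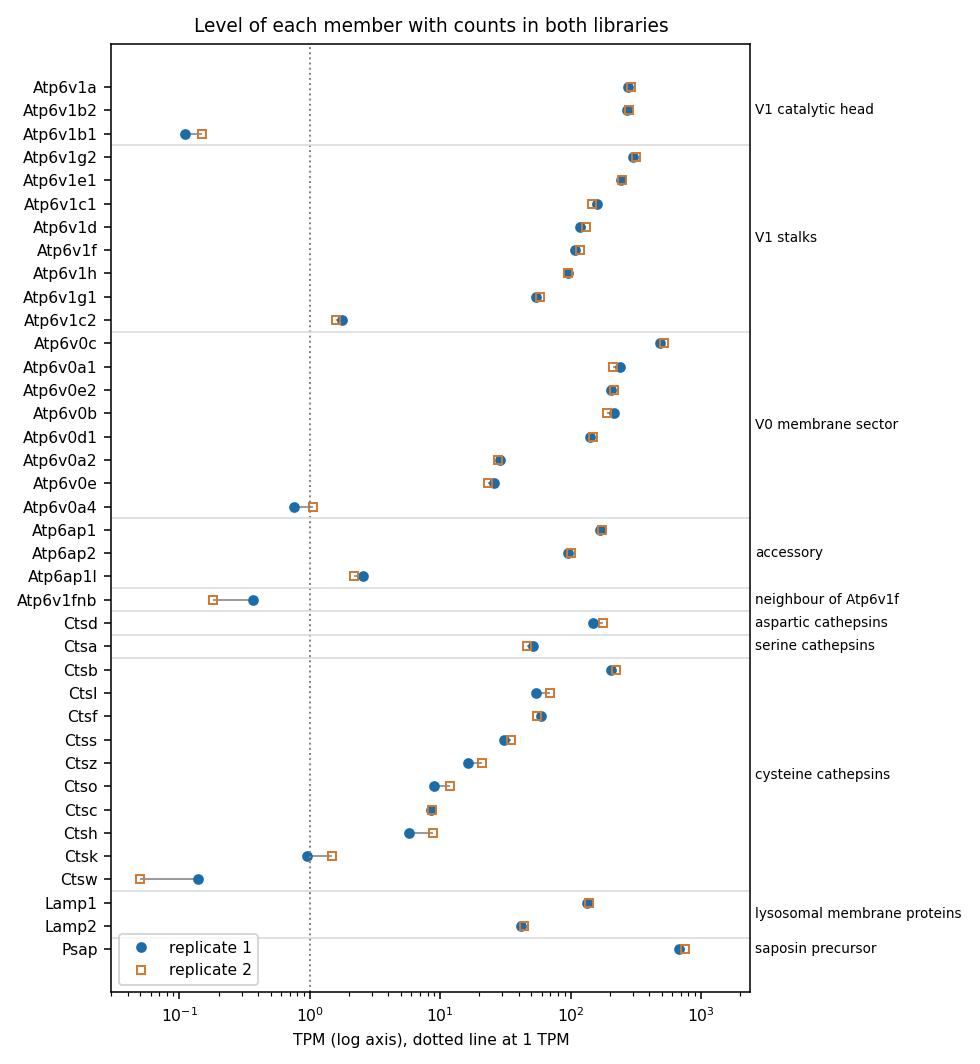
Level of each gene with counts in both libraries, in TPM on a log axis, grouped by role; filled circles are replicate 1, open squares replicate 2, grey lines join the pair, and the dotted line marks 1 TPM. Psap stands highest (683 and 754 TPM), and the genes left of or at the dotted line include the kidney-type subunits Atp6v1b1 and Atp6v0a4.

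In the V1 sector 1 gene led for every subunit that has several. Its 13 subunit genes summed to 1628 and 1689 TPM (1659 ± 42.8). Atp6v1a, the A subunit that binds and hydrolyses ATP (chromosome 16, 44085402 to 44139705, minus strand, in mm10), was at 275 TPM in replicate 1 and 290 in replicate 2. Atp6v1b2, the B subunit that pairs with it in the head, was at 269 and 283 TPM. The deposited bounds of these partners of the catalytic head overlapped in each library, although Atp6v1a was the higher in both libraries.

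The stalk subunits, which hold the head still or turn inside it, summed to 1084 and 1116 TPM. Atp6v1g2, a G subunit of the peripheral stalks that is known from brain, was the highest V1 gene at 300 and 317 TPM (308 ± 11.9). Atp6v1e1, the E subunit that pairs with G, was at 244 and 248 TPM. Atp6v1c1, the C subunit that joins the stalks to the membrane sector and leaves during disassembly, was at 160 and 147 TPM. Of this, coding transcripts held 108 and 121 TPM, so the direction between the libraries turned. The rotor subunits of the central stalk were Atp6v1d at 119 and 132 TPM, of which coding transcripts held 37.6 and 40.6 TPM, and Atp6v1f at 109 and 117 TPM. Atp6v1h, which regulates the enzyme and silences ATP hydrolysis in V1 that has come off the membrane, was at 96.4 and 96.3 TPM and so differed least between the libraries among the detected V1 genes. The second G gene, the broadly expressed Atp6v1g1, was at 54.0 and 57.9 TPM. The second C gene, Atp6v1c2, was at 1.76 and 1.59 TPM, and its deposited TPM bounds lay below those of every V1 gene named above.

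The V0 sector summed to 1349 and 1347 TPM over 9 genes (1348 ± 1.17). Atp6v0c, the proteolipid that builds most of the rotating membrane ring, was the highest V-ATPase gene at 490 and 525 TPM (508 ± 25.2; ENSMUSG00000024121.13, chromosome 17, 24163866 to 24169702, minus strand). Its level is uncertain, because the processed pseudogene Atp6v0c-ps2 was given 223 and 216 TPM in the same gene tables and 0 in both libraries by the second quantifier, which placed Atp6v0c at 499 and 539 TPM. Atp6v0b, the other proteolipid of the ring, was at 215 and 191 TPM. Atp6v0a1, the a subunit of synaptic and other neuronal membranes, which carries the channels that protons enter and leave by, was at 240 and 213 TPM. Atp6v0d1, which couples the ring to the rotor, was at 142 and 149 TPM. The small membrane subunit e came mainly from Atp6v0e2, at 205 and 216 TPM, and less from Atp6v0e, at 26.0 and 23.2 TPM. Atp6v0a2, the a subunit known from the Golgi and endosomes, was at 29.0 and 28.0 TPM. The sum of the sector thus differed by little between the libraries by all transcripts, and was 1240 and 1271 TPM over coding transcripts alone. In TPM Atp6v0a1, Atp6v0b and Atp6v0e were lower and Atp6v0c and Atp6v0e2 higher in replicate 2. Of Atp6v0a1, coding transcripts held 181 and 176 TPM. By scaled counts, the log2 ratio of replicate 2 over replicate 1 was -0.03 for Atp6v0a1, 0.05 for Atp6v0b and -0.38 for Atp6v0e.

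The accessory genes encode membrane proteins that help V0 assemble and travel. Atp6ap1, also called Ac45, was at 169 and 175 TPM. Atp6ap2, also called the prorenin receptor, was at 96.3 and 101 TPM. Atp6ap1l, a relative of Atp6ap1, was at 2.56 and 2.20 TPM from 39 and 44 counts.

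In each of the 12 families with more than 1 gene and at least 1 detected member, the bounds of the leading gene lay above those of all its relatives in both libraries, and the second quantifier and the TPM of coding transcripts alone named the same 12 leaders. The 4 placental cathepsins, all without counts, were left out. Families were limited to the chosen gene names. Among the G subunits Atp6v1g2 exceeded Atp6v1g1 by 5.55 and 5.47 times and made up 84.6% ± 0.127 of the family's TPM (SD, n = 2, as for the shares that follow). Among the a subunits Atp6v0a1 exceeded Atp6v0a2 by 8.30 and 7.61 times and made up 88.5% ± 0.708, or 85.2% and 84.6% in the 2 libraries when Tcirg1, an a subunit under another name, was counted too. Atp6v0e2 exceeded Atp6v0e by 7.89 and 9.30 times (6.53 and 6.81 by the second quantifier), with 89.5% ± 1.09 of the family. Atp6v1c1 exceeded Atp6v1c2 by 91.2 and 92.3 times (45.9 and 58.6 by the second quantifier, 61.5 and 76.1 over coding transcripts alone). Atp6v1b1 and Atp6v0a4, which serve acid secretion in the kidney and inner ear, were at 0.11 and 0.15 TPM and at 0.75 and 1.06 TPM. Atp6v1g3 (kidney), Atp6v0d2 (osteoclast and kidney) and Atp6v1e2 (testis) had no counts in either library.

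**Figure D2:**
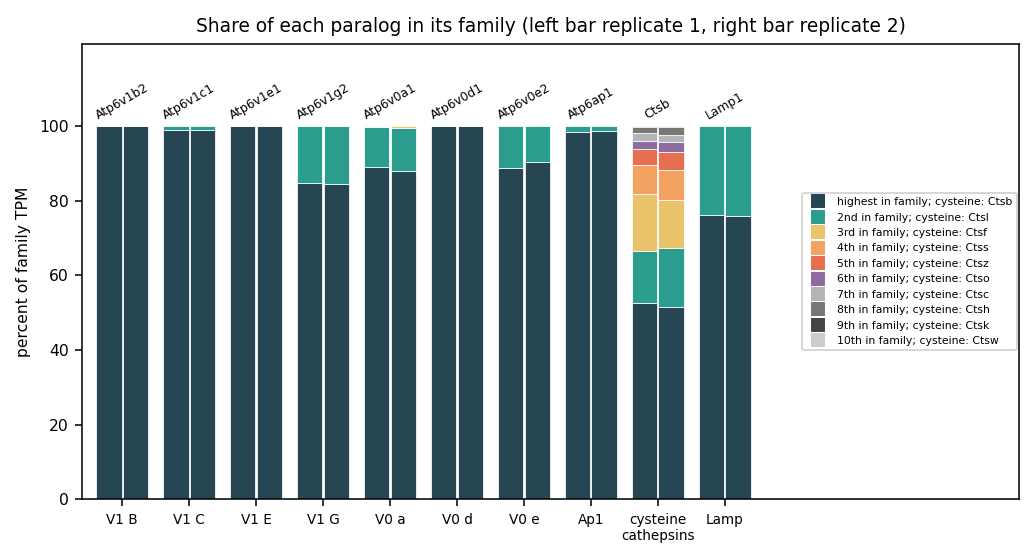
Percent of each family's summed TPM held by each gene, with the left bar of a pair for replicate 1 and the right bar for replicate 2; colours give the order within a family, and the name above a pair is the leading gene. Atp6v1g2, Atp6v0a1 and Atp6v0e2 hold 84.6%, 88.5% and 89.5% of their families on average, while Ctsb holds 52.0% of the cysteine cathepsins by the TPM of all transcripts plotted here and 37.8% by coding transcripts alone.

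Ctsb and Ctsd were the highest cathepsins, Ctsb by the TPM of all its transcripts and Ctsd by that of coding transcripts alone. Ctsb, a cysteine protease with both endopeptidase and peptidyl-dipeptidase activity (ENSMUSG00000021939.8, chromosome 14, 63122462 to 63145923, plus strand), was at 206 and 225 TPM (215 ± 13.6). Of this, coding transcripts held 83.4 and 92.4 TPM. Ctsd, the aspartic protease of the lysosome (ENSMUSG00000007891.16, chromosome 7, 142375911 to 142388038, minus strand), was at 148 and 178 TPM (163 ± 20.9), of which coding transcripts held 146 and 177 TPM. Ctse, the other aspartic cathepsin, had no counts in these libraries and 0.238 and 0.148 TPM by the second quantifier. Ctsa, a serine carboxypeptidase that also shields other lysosomal enzymes from breakdown, was at 51.8 and 46.2 TPM, and Ctsg, a serine protease of neutrophil granules, had no counts.

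Below Ctsb the cysteine cathepsins fell off in steps. Ctsl, an endopeptidase with a broad range of substrates, was at 54.2 and 69.6 TPM. Ctsf, a further lysosomal cysteine protease, was at 59.9 and 55.6 TPM, so these genes changed order between the libraries. Ctsb exceeded Ctsl by 3.80 and 3.24 times and Ctsf by 3.44 and 4.05 times, and held 52.0% ± 0.817 of the TPM of the 10 cysteine cathepsins. Over coding transcripts alone it exceeded Ctsl (44.6 and 54.0 TPM) by 1.87 and 1.71 times and Ctsf (21.3 and 24.8 TPM) by 3.91 and 3.73 times, and its share was 37.8% ± 1.45. Ctss, known from microglia and other antigen-presenting cells, was at 30.7 and 35.2 TPM. Ctsz, a carboxypeptidase, was at 16.4 and 21.1 TPM. Ctso, whose substrates are little known, was at 8.97 and 11.9 TPM, Ctsc, the dipeptidyl peptidase that activates granule proteases of immune cells, at 8.53 and 8.71 TPM, and Ctsh, an aminopeptidase, at 5.77 and 8.85 TPM. The bounds did not separate Ctsl from Ctsf, Ctso from Ctsc, or Ctsc from Ctsh in both libraries. Ctsk, the main collagenase of osteoclasts, was at 0.95 and 1.49 TPM from 19 and 40 counts, and Ctsw, known from cytotoxic lymphocytes, had 2 and 1 counts.

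In all, 14 of the 47 genes fell short of detection, and 9 of these had no counts in either library. The 9 are Atp6v1g3, Atp6v0d2, Atp6v1e2, Ctse, Ctsg and the 4 placental cathepsins Ctsj, Ctsm, Ctsq and Ctsr, which mice express in trophoblast. A count of 0 allows up to 3 counts in each library, and the deposited upper TPM bounds of these genes lay between 0.0853 for Atp6v1g3 in replicate 2 and 0.823 for Ctsm in replicate 1. The remaining 5 were Ctsk, Atp6v0a4, Atp6v1b1, Ctsw and Atp6v1fnb. Atp6v1fnb is the annotated neighbour of Atp6v1f, is no V-ATPase subunit by its name, and had 3 and 2 counts.

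Psap was the highest gene of all 47, and its product and the Lamp proteins are not proteases. It was at 683 and 754 TPM (719 ± 50.3; ENSMUSG00000004207.14, chromosome 10, 60277627 to 60302597, plus strand), above 99.8% of protein-coding genes. Lamp1 was at 134 and 139 TPM (137 ± 3.83) and Lamp2 at 41.7 and 44.1 TPM (42.9 ± 1.72). Lamp1 thus exceeded Lamp2 by 3.21 and 3.16 times, with 76.1% ± 0.219 of their sum.

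Which transcript carried a gene's signal differed widely among the detected genes. The leading transcript, the one with the largest share of the gene's TPM, was protein-coding in 30 of the 33 and held over 90% in both libraries in 12. In 31 of the 33 the same transcript led in both libraries, the exceptions being Atp6v1c2 and Lamp2, and in 30 both quantifiers named the same one, the exceptions being Ctsh, Ctsl and Ctss. The genes led by a transcript that is not protein-coding were Atp6v1d, Ctsb and Ctsh. Atp6v1d-202, which keeps an intron, took 65.6% and 67.6% of the gene's TPM (71.0% and 75.4% by the second quantifier). Ctsb-202, also with a kept intron, took 58.7% and 58.4% (61.9% and 61.1%). These are short annotated models, of 775 and 801 bases against 3667 and 4743 bases for the coding Atp6v1d-201 and Ctsb-201, and TPM divides by length. Counted by reads, coding transcripts held 71.2% and 70.4% of Atp6v1d and 81.7% and 82.1% of Ctsb. Ctsh-202, a target of nonsense-mediated decay, the pathway that destroys messages with an early stop codon, took 55.2% and 32.3%, from 51.1 and 61.8 counts, and 25.7% and 16.3% by the second quantifier. Taken over coding transcripts alone, the cathepsins summed to 396 and 466 TPM and the V-ATPase genes to 2955 and 3090 TPM.

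**Figure D3:**
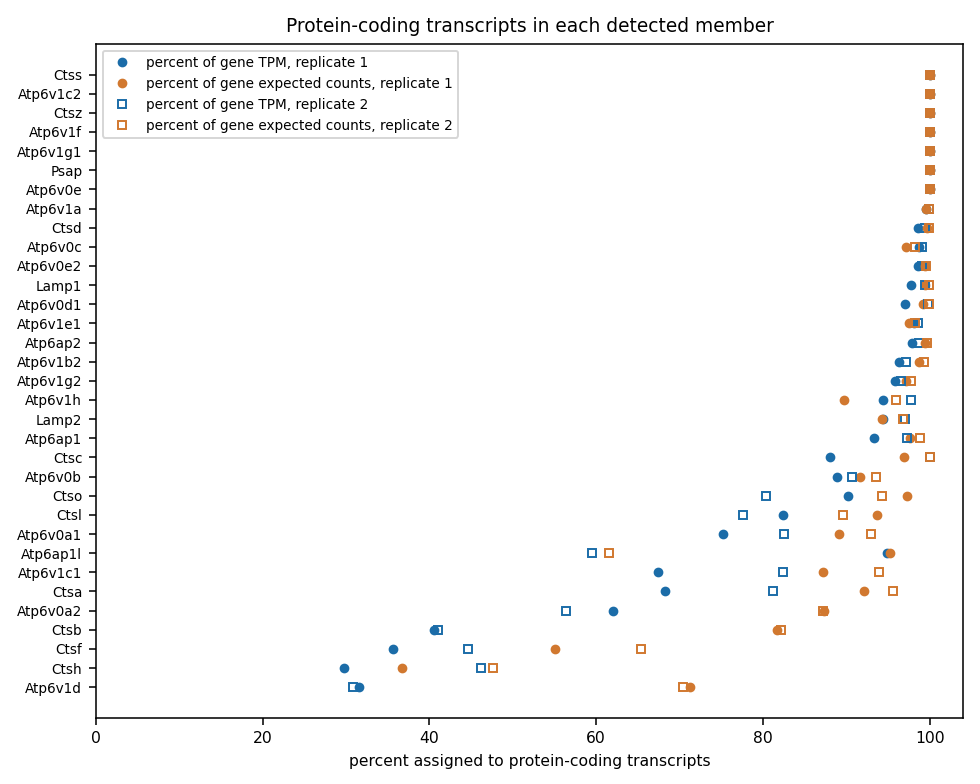
Percent of each detected gene's TPM (blue) and expected counts (orange) assigned to its protein-coding transcripts, with filled circles for replicate 1 and open squares for replicate 2. Most genes lie near 100%, while Atp6v1d, Ctsh, Ctsf and Ctsb lie lowest by TPM, and Ctsb and Atp6v1d lie far higher by counts.

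Other genes split their coding signal among several transcripts. Atp6v1a was divided between Atp6v1a-202 (56.7% and 59.1% of TPM) and the 629-base Atp6v1a-203 (35.1% and 34.0%), which held 6.59% and 6.26% of the counts. The smaller genes Atp6v1c2 (Atp6v1c2-201 and Atp6v1c2-206) and Ctsc (Ctsc-201 and Ctsc-203) were also split, on 30 and 31 counts and on 248 and 350 counts. In Ctsl, Ctsl-201 held 41.4% and 39.7% and Ctsl-204 held 26.0% and 32.6%, but the second quantifier gave Ctsl-204 8.30% and 3.81% and led with Ctsl-203. In Ctss, Ctss-202 held 100% and 96.6% by the first quantifier and 50% and 11.8% by the second, which gave the rest to the equally long Ctss-201. The 2 programs thus differed on these splits in Ctsl and Ctss, and the cause was not tested.

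Lamp2 was split among 3 coding forms with different ends. Its transcripts share their lumenal part and differ in the last exon, which encodes the membrane span and the cytosolic tail. The last 60 coding bases of each are shown because the tail sets them apart, with the final 15 bases before the stop codon in capitals, the stretch that holds the tyrosine-based signal for sorting to lysosomes. They lie on the minus strand of chromosome X in mm10 and were read from GENCODE M21 transcripts.
Lamp2-201 (chrX:38405435-38405494): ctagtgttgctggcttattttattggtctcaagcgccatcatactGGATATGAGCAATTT
Lamp2-202 (chrX:38421715-38421774): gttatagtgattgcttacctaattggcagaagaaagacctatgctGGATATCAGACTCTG
Lamp2-203 (chrX:38402142-38402201): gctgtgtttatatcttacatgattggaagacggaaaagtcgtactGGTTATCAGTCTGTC
By these ends Lamp2-201 is Lamp2a, the form known as the receptor of chaperone-mediated autophagy, Lamp2-202 is Lamp2b and Lamp2-203 is Lamp2c. Lamp2b held 36.3% and 35.4% of the gene's TPM, and Lamp2c held 36.9% and 29.9%. Lamp2a held 21.2% and 31.7%, from 208 and 444 counts. The second quantifier gave the same order within each library for Lamp2b above Lamp2a, with 36.7% and 37.0% for Lamp2b, 36.0% and 31.4% for Lamp2c, and 20.6% and 27.7% for Lamp2a. No form held more than 37.0% of the gene by either program, and of the 3 forms Lamp2a differed most between the libraries.

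Short pieces of coding exon that are used in some transcripts and skipped in others were also measured in Psap, Atp6v1h and Ctsd, which were picked for this after their values had been seen. The share is the TPM of transcripts that carry the piece over that of all coding transcripts that span the place. Each piece is printed in capitals between the exon bases that flank it, with the skipped form of Psap beside it.
Psap-205, piece at chr10:60297537-60297545, plus strand: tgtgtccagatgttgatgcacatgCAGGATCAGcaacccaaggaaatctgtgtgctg
Psap-202, piece skipped: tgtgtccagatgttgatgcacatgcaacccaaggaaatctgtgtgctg
Atp6v1h-201, piece at chr1:5101070-5101123, plus strand: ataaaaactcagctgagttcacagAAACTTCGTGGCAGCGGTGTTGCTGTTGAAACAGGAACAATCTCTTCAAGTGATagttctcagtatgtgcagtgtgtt
Ctsd-202, piece at chr7:142377333-142377350, minus strand: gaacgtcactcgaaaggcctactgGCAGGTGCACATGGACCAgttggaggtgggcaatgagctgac
The 9-base piece of Psap was carried by 78.8% of the spanning coding TPM in replicate 1 and 75.8% in replicate 2 (77.3% ± 2.12, n = 2), and by 74.1% and 74.0% by the second quantifier. Most Psap message in these libraries was thus the longer form, which Psap-205 alone represents in the annotation. The 54-base piece of Atp6v1h was carried by 16.2% and 13.7% (31.9% and 24.5% by the second quantifier), so the form that skips it led. The 18-base piece of Ctsd was carried by 53.1% and 63.5%, against 79.5% and 84.6% by the second quantifier, so its size depended on the program. All 3 lengths are multiples of the codon length, and all 3 pieces lie inside the coding sequence.

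**Figure D4:**
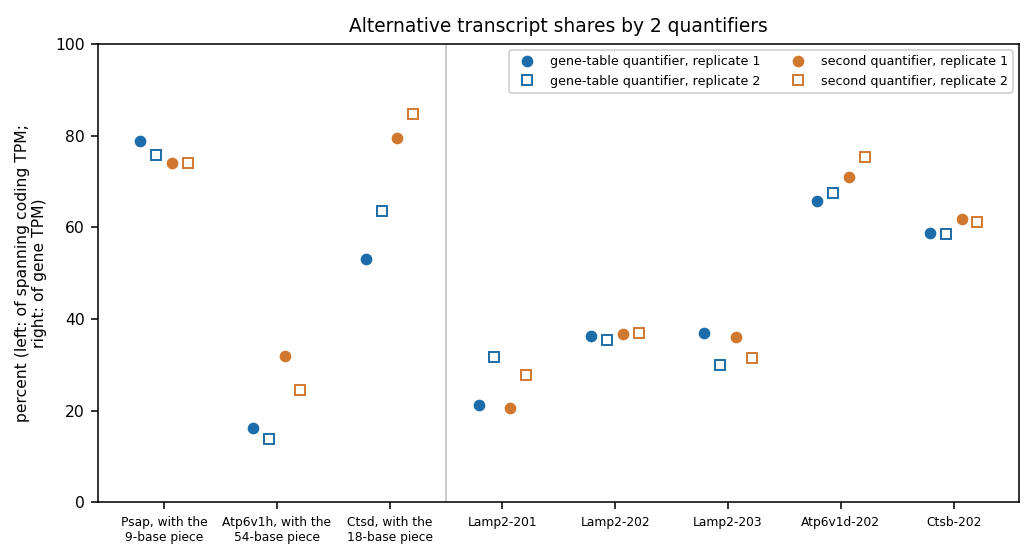
Percent of TPM held by alternative forms, in replicate 1 (filled circles) and replicate 2 (open squares), by the program behind the gene tables (blue) and the second quantifier (orange); left of the line the share is of coding TPM that spans the exon piece, right of it of the gene's TPM. Psap keeps its 9-base piece in 74.0% to 78.8% of spanning TPM under every setting, whereas Ctsd ranges from 53.1% to 84.6%.

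None of these genes was called different between the 2 libraries. The test was run with edgeR on all 16123 genes that reached 1 CPM (counts scaled by library size) in either library, of which 34 belong to the set, and it called 130 genes, or 0.806%, at a Benjamini-Hochberg adjusted p under 0.05. Of the 34, 0 were called and 0 had an unadjusted p under 0.05, and each had an edgeR adjusted p of 1.00. A quasi-likelihood F test and the counts of the second quantifier also called 0 of them, each with 1 unadjusted p under 0.05. These p-values compare the 2 libraries and no condition. Between libraries, 33 of the 34 lay within 1.5-fold, as did 85.9% of all tested genes.

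The ratios leaned towards replicate 2, and among the roles the cathepsins had the highest median. The median log2 ratio of replicate 2 over replicate 1 was 0.20 over the 34 genes, where it was -0.00 over all tested genes and 0.03 over those at 10 TPM or more. The ratio was above 0 in 29 of the 34, against 8027 of the 16123 tested and 56.1% of those at 10 TPM or more. Scaled by the ERCC spike-ins, the median of the 34 was -0.03 and that of all genes -0.23, so the sign of the lean turned. A change of scaling shifts the ratios of all genes by nearly the same amount. The distance of the 34 from the other genes, near 0.20, could therefore hardly change. The same holds for the number above the median of all genes, 29, so neither is a check of the lean. By role, the median was 0.39 in the cathepsins, with 11 of 11 above 0 under the main scaling. It was 0.20 in V1, 0.05 in V0 and 0.19 over all V-ATPase genes. In plain TPM, Ctsa (51.8 and 46.2) and Ctsf (59.9 and 55.6) were lower in replicate 2 and the other tested cathepsins higher. The largest ratios were those of Ctsk (0.71, on 19 and 40 counts), Ctsz (0.48) and Ctsl (0.43, unadjusted p = 0.055), followed by Ctso (0.41) and Ctsd (0.40, unadjusted p = 0.058), each with an edgeR adjusted p of 1.00. The lowest was Atp6v0e at -0.38.

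By the deposited TPM bounds, which hold counting and assignment error within a library only, 11 of the 34 were higher in replicate 2, where 3.97% of all tested genes were. These were Psap, Atp6v0c, Atp6v1g2, Atp6v1b2, Ctsb, Atp6v0e2, Ctsd, Atp6v1d, Ctsl, Ctsz and Ctso. Atp6v0a1 and Atp6v0b were lower, where 21.9% of all tested genes were. Relative to a gene's level such bounds are narrower where counts are many, and most of the 34 lay at higher levels than most genes. No share among genes of like level was computed, so these shares are not a like comparison. Plain TPM was higher in replicate 2 for 23 of the 33 detected genes and for 33.3% of all detected protein-coding genes. The choroid plexus list had 8 of its 9 markers called higher in replicate 2 by edgeR (Ttr from 8.68 to 1703 TPM, with a log2 ratio of 7.71 and an adjusted p of 1.34e-98), while Otx2 missed the threshold (adjusted p = 0.057). The other 7 called were Slc4a5 (0.21 and 6.14 TPM), Folr1 (0.25 and 17.5), Aqp1 (0.25 and 6.18), Sostdc1 (0.67 and 15.4), Clic6 (1.22 and 7.85), Kcnj13 (1.27 and 12.4) and Kl (4.51 and 19.7). The 9 microglia markers summed to 196 and 214 TPM, among them Csf1r (28.7 and 35.0) and the lowest, Aif1 (4.08 and 4.20), with a median log2 ratio of 0.20 and 8 of 9 above 0. The 4 excitatory neuron markers, 4 astrocyte markers and 4 oligodendrocyte markers had medians of 0.19, 0.12 and 0.17, with all above 0. They ran from Camk2a (1524 and 1469 TPM) and Slc17a7 (612 and 631) down to Neurod6 (84.6 and 98.4), from Slc1a2 (857 and 797) and Gfap (163 and 188) down to Aldh1l1 (21.9 and 21.1), and from Mbp (855 and 834) down to Mog (22.0 and 30.2). The 4 endothelial markers, from Cldn5 (19.8 and 19.5 TPM) and Flt1 (19.5 and 15.8) down to Kdr (4.02 and 3.01), had a median of 0.01, with 2 above 0. The 7 markers of perivascular macrophages and blood myeloid cells summed to 3.97 and 2.89 TPM, led by Mrc1 (1.57 and 1.61) and Cd163 (1.28 and 0.53), and S100a9 and Elane were at 0 in both. The part of these cells in the ratios was not tested.

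**Figure D5:**
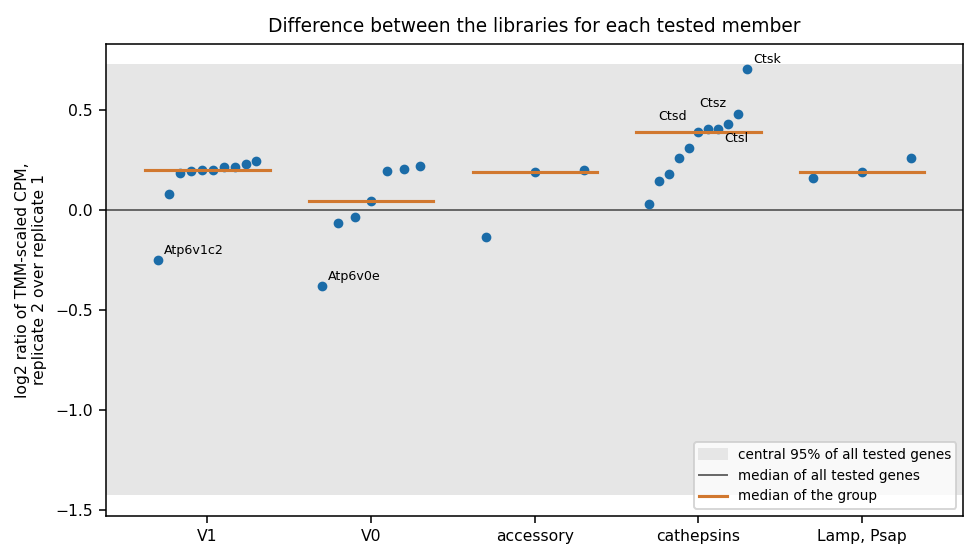
Log2 ratio of replicate 2 over replicate 1, in CPM after TMM scaling, for each tested gene (points) by role, with the median of each role (orange) and of all tested genes (dark line); the grey band holds the central 95% of all tested genes. All 34 points lie inside the band, and the cathepsins have the highest median (0.39).

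Promoter sequence was searched for the E-box, because TFEB and its relatives, the transcription factors known for switching on lysosomal genes, bind E-boxes of the form TCACGTGA. RefSeq promoter windows of build GRCm38.p6, from 250 bases before to 50 bases after a gene's start, were at hand for 36 of the 47 genes. TCACGTGA, which reads the same on both strands, occurred in 5 of the 36 (13.9%), against 304 of 27025 genes (1.12%) and 218 of 10150 detected protein-coding genes (2.15%). The 5 were Ctsa, Ctsd, Atp6v0d1, Atp6v1a and Atp6v0e. The core CACGTG, which lies inside the longer motif, occurred in 9 of the 36 (25%), adding Atp6v0b, Lamp1, Ctsl and Ctsf, against 2187 of 27025 genes (8.09%). Among detected genes, the core occurred in 9 of 25 members (36.0%) and 1193 of 10150 protein-coding genes (11.8%). Matches in the promoters of an aspartic and a serine cathepsin, a catalytic pump subunit and the membrane protein Lamp1 are shown with the motif in capitals.
Ctsd (chr7:142387899-142387946, minus strand): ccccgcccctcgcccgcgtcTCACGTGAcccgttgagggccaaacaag
Ctsa (chr2:164833740-164833772, plus strand): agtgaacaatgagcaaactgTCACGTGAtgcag
Atp6v1a (chr16:44139364-44139411, minus strand): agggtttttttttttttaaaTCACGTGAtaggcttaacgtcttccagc
Lamp1 (chr8:13159091-13159160, plus strand): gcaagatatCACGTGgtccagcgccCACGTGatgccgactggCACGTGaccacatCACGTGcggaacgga
Lamp1 held 4 copies of the core within the 61 bases before its start and none of the longer motif. The TCACGTGA of Ctsd began 99 bases before its start and that of Atp6v1a 132 bases before. Ctsa held another TCACGTGA (chr2:164833777-164833784), past its start and beyond the stretch shown. A match says only that these letters are present, and the files hold no measurement of binding.

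The factors themselves were expressed at modest levels. Tfeb was at 8.36 and 7.04 TPM. Of its relatives, Tfe3 was at 16.1 and 16.0 TPM, Mitf was at 5.52 and 4.00 TPM, and Tfec had no counts. In the list of 14 such factors and their regulators, 13 were detected and the highest were Lamtor2 (52.5 and 51.6 TPM) and Lamtor1 (38.1 and 41.0 TPM), parts of the Ragulator complex that anchors mTORC1 signalling at the lysosome.

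The other genes of the pathway, taken from lists chosen by function, gave 0 genes called in either direction by edgeR. The V-ATPase genes that carry other names were Rnasek, a small subunit of V0, at 100 and 113 TPM, and Tcirg1, the a subunit of osteoclasts, at 12.03 and 9.65 TPM. Of the 17 genes for assembly and regulation of the pump and for its partner chloride transporters, 16 were detected, with a median log2 ratio of 0.05. The highest were Rogdi (152 and 130 TPM), a member of the complex that reassembles the pump, and Oxr1 (120 and 123 TPM), and the lowest was Tldc2 (0.14 and 0 TPM). Of 34 further lysosomal hydrolases, 33 were detected, with a sum of 932 and 931 TPM, a median level of 16.2 TPM and a median log2 ratio of 0.12. Gaa, the acid alpha-glucosidase, at 166 and 165 TPM and Ids, the iduronate sulfatase, at 157 and 159 TPM were the highest, and Acp5, an acid phosphatase of osteoclasts and macrophages, the lowest (0.05 and 0.59 TPM). Of 27 genes for lysosomal membrane proteins and sorting, 26 were detected, led by the sorting receptor Sort1 (185 and 177 TPM) and by Laptm4a (103 and 111 TPM), with Lamp3 lowest (0.02 and 0.03 TPM). The median log2 ratio of that list was 0.09. The cathepsin inhibitors were led by Cst3, which codes for cystatin C, an inhibitor of cysteine cathepsins that cells secrete, at 1050 and 1169 TPM, followed by Serpina3n at 33.7 and 33.1 TPM. Cst3 thus exceeded the summed level of the 18 cathepsins in both libraries, while 4 of the 9 inhibitors (Cst7, Stfa1, Stfa2 and Stfa3) had no counts.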

How the data were processed

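Per the submitters' processing notes, the authors quantified each library on mm10 with GENCODE M21. The gene table and first transcript table have the columns of RSEM and were made from a transcriptome alignment, and the second transcript table has those of kallisto. The sources used here do not give program versions or the level of the TPM bounds. Expected counts, as deposited, are reads estimated for a gene or transcript without scaling between libraries. Deposited TPM values are scaled by length to a common total, and a deposited percent is the part of a gene's TPM that falls to a transcript.

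Expected counts were rounded and fitted with edgeR 4.0.16 in R 4.3.3: CPM of 1 or more in at least 1 library, TMM scaling, an intercept alone, trended dispersion, and each gene's residual deviance against chi-square with 1 degree of freedom, adjusted over all tested genes. Log2 ratios used a prior count of 2. The fit was tested on simulated data. An exact permutation test over 2 animals cannot reach p = 0.05. Intervals and the limit of 3 counts cover counting error only. Alternatives were DESeq2 1.42.0 size factors, ERCC scaling, other filters and dispersions, the second quantifier and leaving out each replicate.

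The naming rule uses no measured value, but it and the lists were chosen with earlier results of these data known. Every detected member has both values printed. Of each other list, the 2 highest and the lowest by mean TPM and every called gene are named, except 2 marker genes whose values are not reported here; of the transcripts, the leader where it is not protein-coding or where a second coding one holds 20% or more in both libraries; and the 3 largest log2 ratios. Tfeb, Tfe3, Mitf and the ratios of Ctso, Ctsd, Atp6v0e, Atp6v0a1 and Atp6v0b were named after their values were seen. So were Ctsf and Ctss among the transcripts and the exon pieces.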

Additional observations from a re-analysis of the deposited data

How the results depend on the processing

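No member was called under any of the 7 alternatives of the fit, and the 12 family leaders and 30 coding leading transcripts held in number under the second quantifier and without either replicate. The median log2 ratio of the tested members was 0.19 to 0.25 under every scaling, filter and quantifier tried except ERCC scaling, which gave -0.028 against 0.20. The dispersion and the choice of test do not enter this ratio, so they could not change it. Over all genes, the calls numbered 130, but 341 with a common dispersion and 72 with the quasi-likelihood F test. The number detected was 32 to 35. The summed TPM of the V-ATPase genes, the cathepsins and all members was 2989, 557 and 4303 by the second quantifier, and 6615, 1265 and 9693 when TPM was rescaled to nuclear protein-coding genes alone, against 3279, 626 and 4804. Without a replicate the sums were 3244 to 3314, 591 to 661 and 4695 to 4914. The second quantifier moved 25 of 33 single-gene levels and 14 of 19 transcript shares by more than 1 SD of the 2 animals, and all 33 levels stayed within 1.5-fold. No paired analysis was possible because there is 1 group. Added after the values were seen, the TPM of coding transcripts alone kept the 12 family leaders but lowered the share of Ctsb among cysteine cathepsins from 52.0% to 37.8%. Changes between 2 libraries below several-fold are mostly beyond what this test can call.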
